A study of Mus musculus with 2 samples.

Results

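This account follows the genes of the collagen chains and of the enzymes that process collagen in whole mouse kidneys, by RNA-seq. There were 2 libraries: a control, and a conditional knockout (CKO) in which Inmt was deleted in the proximal tubule. The members were taken by name: every protein-coding gene of the deposited count table whose symbol reads Col, digits, a, digits, together with 13 listed processing genes. The rule found 56 of the 45777 genes in the table, 44 of them chains and 12 of them processing genes, since the listed name Bmp1x matched no symbol. Inmt encodes indolethylamine N-methyltransferase, which methylates tryptamine and other small amines. Both groups ate standard chow and received no treatment. Neither the Cre driver, the control genotype, nor the animals' age, sex and number per library is given in the sources used here.

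Collagen chains wind around each other into triple helices inside the cell. Prolyl hydroxylases make the helix stable, and lysyl hydroxylases prepare lysines for sugar attachment and cross-links. After secretion, end pieces called propeptides are cut from fibrillar procollagens, a cut that the enhancer protein PCOLCE speeds up, and lysyl oxidases then join the molecules by covalent cross-links. In the kidney, type IV collagen forms the sheet of basement membranes under tubules, vessels and the glomerular filter. Fibrillar collagens lie in the interstitium and around vessels, where fibroblasts and pericytes make most of them, and they accumulate in renal fibrosis.

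Counted reads came to 33618076 (control) and 38136616 (CKO). Inmt, the targeted gene, had 17678 reads in the former and 5283 in the latter, 4.73-fold lower after scaling (4.59 to 4.88). Levels are given as CPM, reads per 1000000 after TMM scaling by edgeR, and genes with at least 1 CPM in either library are called expressed. Log2 ratios are CKO over control of CPM + 0.5, a scale that pulls genes with few reads toward 0, while fold values are plain ratios of CPM. The authors' FPKM and TPM values are scaled by gene length, and 0.5 was likewise added to them before log2 ratios were taken. Each group is 1 library, so differences have no replicate check and no test was made. Intervals are 95% intervals and cover counting error only. In whole tissue, fewer cells of a type and less RNA per cell cannot be told apart. Of the 8 proximal tubule markers, 8 were expressed in both libraries, at a summed level of 17054 CPM in the control and 9994 CPM in the CKO library, and the uroplakin genes Upk1b, Upk2 and Upk3a of the urothelium were at 0 in both. All 5 cartilage markers were at 0 in the control. Acan, Cnmd and Matn1 had 2, 4 and 3 CKO reads, and Ibsp and Matn3 had 0.

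Collagen transcripts took a larger part of the CKO library. The 44 chain genes together had 86272 reads in the control, 0.257% of all counted reads (exact Clopper-Pearson 95% interval 0.255 to 0.258), and 171927 reads in the CKO library, 0.451% (0.449 to 0.453). These shares rest on total counts, where the median log2 ratio of all expressed genes was itself 0.32. After TMM scaling the chains summed to 2865 CPM in the control and 4038 CPM in the CKO library, a ratio of 1.41. Of the 56 members, 45 were expressed, and 19 of these were at least 2-fold higher in the CKO library, 42.2%, where 10.3% of all 15129 expressed genes were. Another 2 members, Col6a6 and Col19a1, were at least 2-fold lower, against 1.66% of all expressed genes, and 24 lay in between. With a 1.5-fold limit, 27 members were higher, against 19.3% of all genes, and 3 were lower, against 6.85%. Of the 45 expressed members 38 had a log2 ratio above 0, against 50.7% of all expressed genes. Among the 38, Col8a2, Col11a1, Col17a1 and Col25a1 reached 1 CPM only in the CKO library, which by itself puts their ratios above 0. The median log2 ratio of the expressed members was 0.87, and that of all expressed genes 0.01. Chains and processing genes had the same median of 0.87, with 15 of 34 expressed chains and 4 of 11 expressed processing genes at least 2-fold higher.

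Over all genes, those with few reads were more often higher in the CKO library, so the members were also set beside genes of like abundance. Of 21 members with a mean of both libraries from 10 to 100 CPM, 9 were at least 2-fold higher, where 4.81% of the 7821 genes at that level were. Of 9 members with a mean of 100 CPM or more, 3 were, where 1.34% of 1934 genes were. From 3 to 10 CPM, 3 of 8 members were, against 18.2%, and under 3 CPM, 4 of 7 were, against 24.9%. Among these 4, Col11a1, Col17a1 and Col25a1 reached 1 CPM only in the CKO library, so they counted as expressed only through the library where they were higher. They are also among the 19 higher members. Col19a1, called lower, reached 1 CPM only in the control. The choice of scaling shifts all genes together: with total counts the median log2 ratio of all expressed genes moved by 0.31, and with the authors' TPM values by 0.39. On the TPM scale, 2416 of all genes were at least 2-fold higher and 87 lower, in place of 1552 and 251. The distance between the members' median and that of all genes was 0.86 with TMM, 0.86 with total counts and 0.74 with TPM.

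**Figure D1:**
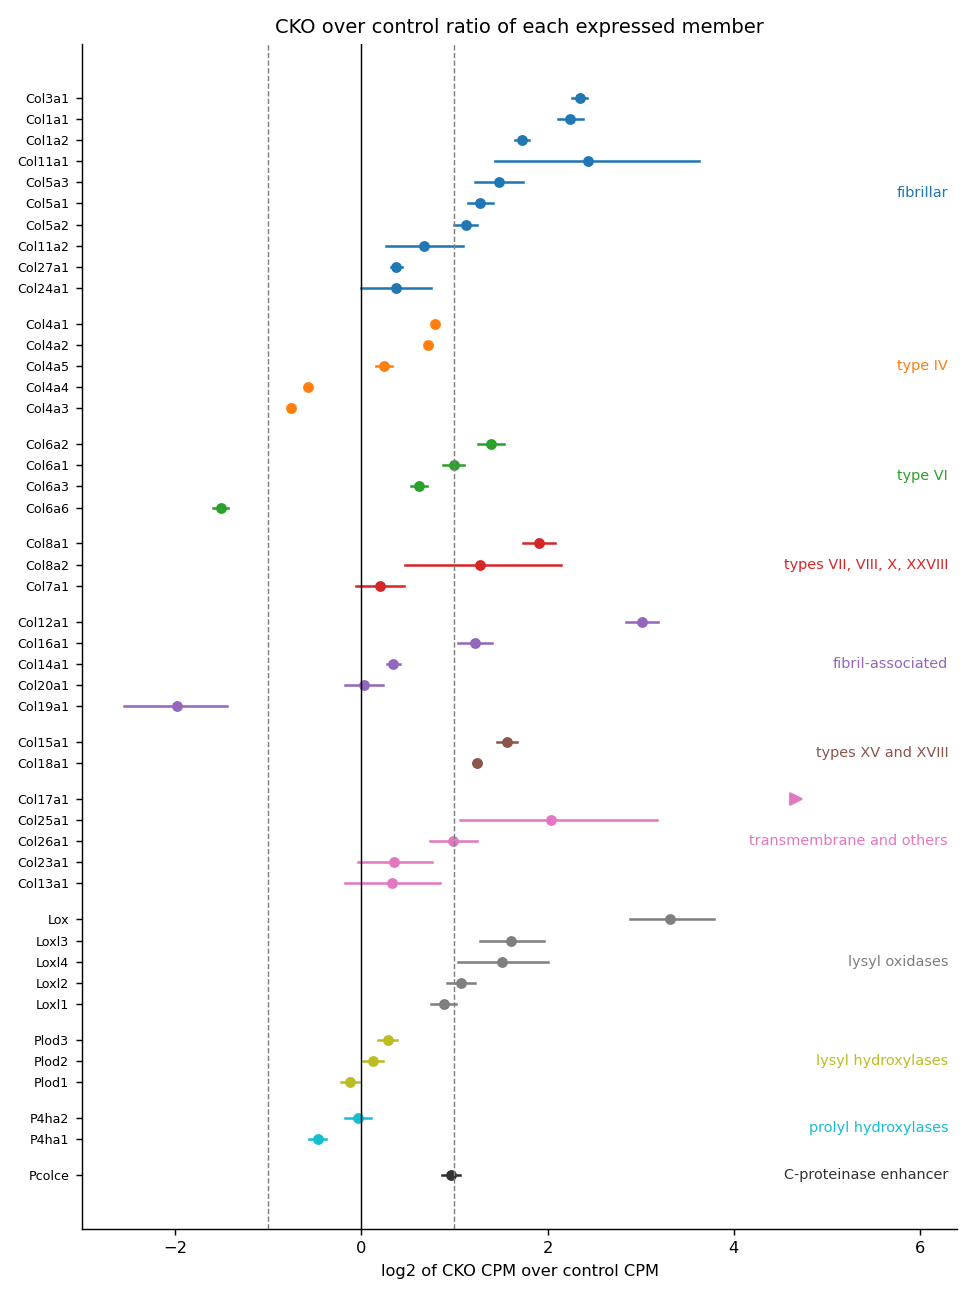
Log2 of the plain ratio of CPM, CKO over control, for the 45 expressed members by class; lines are 95% counting intervals of 1 library against 1, dashed lines mark 2-fold, and the arrowhead is the lower bound for Col17a1, which had 0 reads in the control. The fibrillar chains and lysyl oxidases all lie to the right of 0 and the type IV chains lie on both sides. The lysyl and prolyl hydroxylases lie between the dashed lines, with P4ha1 the furthest left of them.

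**Figure D2:**
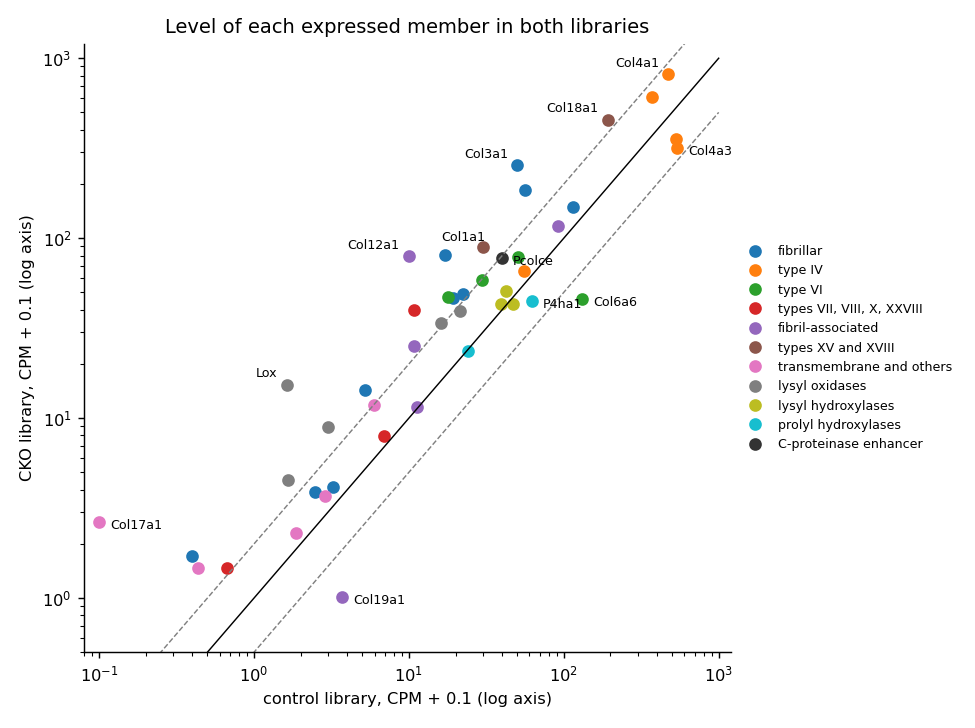
Level of each expressed member in the control (x axis) and CKO (y axis) library as CPM + 0.1 on log axes; the solid line marks equal levels and the dashed lines 2-fold. Most points lie above the solid line, while Col4a3, Col4a4, Col6a6, Col19a1 and P4ha1 are among those under it.

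The fibrillar chains, which build the rope-like fibrils of the interstitium, were higher throughout in the CKO library. Log2 ratios were above 0 for all 10 expressed members of this class, past 2-fold for 7, with a median of 1.32. The shares over all expressed genes were 50.7% above 0 and 10.3% at least 2-fold higher. Col11a1, counted among the 7, was expressed only through the CKO library. Col3a1, the chain of type III collagen, had 1506 control and 10820 CKO reads, or 50.02 and 254 CPM, a ratio of 5.08 (4.81 to 5.37). Col1a1 had 509 and 3406 reads, 16.9 and 80.0 CPM, a ratio of 4.73 (4.31 to 5.20). Its partner in type I collagen, Col1a2, had 1678 and 7830 reads, 55.7 and 184 CPM, a ratio of 3.30 (3.13 to 3.48). These 3 chains make up the bulk of interstitial fibrils, and each was past 2-fold with a counting interval well above it.

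Type V collagen starts fibrils and limits their width, and its chains were higher by smaller factors. Col5a1 had 19.1 and 46.2 CPM, a ratio of 2.42 (2.21 to 2.67). Col5a2 had 22.4 and 48.6 CPM, a ratio of 2.17 (1.99 to 2.37), and Col5a3 had 5.11 and 14.2 CPM, a ratio of 2.78 (2.33 to 3.34). Col11a1, a minor fibril chain best known from cartilage, was past 2-fold on few reads, 9 and 69. Its log2 ratio of 1.41 fell under the 2-fold limit with a pseudocount of 2 CPM and with the authors' FPKM and TPM values. The remaining fibrillar chains were closer to equal: Col27a1, the highest of the class per length in the control at 26.0 TPM, had 115 and 149 CPM, a log2 ratio of 0.38. Col11a2 stood at 0.58 and Col24a1 at 0.33. Col2a1, the main chain of cartilage, had 0 control and 14 CKO reads and was not expressed by the 1 CPM limit.

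Promoter sequences are shown for a fibrillar chain and a vessel wall chain that were both past 2-fold, Col3a1 and Col8a1, so that the region before their starts can be compared. Of the 13 members past 2-fold with 1 RefSeq promoter window, only these 2 had a window of 250 bases with no annotated exon that lay wholly outside the gene's RefSeq span. The windows come from RefSeq on GRCm38.p6, at chr1:45311288-45311537 on the plus strand for Col3a1 and at chr16:57754738-57754987 on the minus strand for Col8a1. Each is written 5′ to 3′ and ends at the base before the start. Capitals mark matches, on either strand, to the core of the TATA box (TATAAA), of the CCAAT box (its name gives the letters), of the GC box (GGGCGG) or of the AP-1 site (TGANTCA).
Col3a1: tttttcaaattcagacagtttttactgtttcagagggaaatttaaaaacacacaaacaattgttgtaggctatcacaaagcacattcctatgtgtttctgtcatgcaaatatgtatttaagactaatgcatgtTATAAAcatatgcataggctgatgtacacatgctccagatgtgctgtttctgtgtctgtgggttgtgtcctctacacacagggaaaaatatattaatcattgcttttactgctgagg
Col8a1: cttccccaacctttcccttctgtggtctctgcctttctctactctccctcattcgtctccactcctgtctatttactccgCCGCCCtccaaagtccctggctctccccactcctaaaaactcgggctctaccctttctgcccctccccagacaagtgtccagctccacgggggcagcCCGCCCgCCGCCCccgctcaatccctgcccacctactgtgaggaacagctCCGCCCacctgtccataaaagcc

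The windows shared none of these motifs. Col3a1 held a TATA box match that begins 117 bases before the start, and Col8a1 held GC box matches that begin 170, 73, 66 and 23 bases before it. Promoter entries were found for 42 of the 56 members, with 45 windows in all. The GC box core occurred in 28 of these windows, 62.2%, and in 32.7% of the 32851 RefSeq windows of the same length. The CCAAT box was found in 31.1% of member windows against 33.8% of all, and the TATA box in 13.3% against 12.4%. The AP-1 core was found in 2.22% against 6.75%. These matches describe the letters of the windows and say nothing of binding.

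Type IV collagen, the network of basement membranes, went both ways. Col4a1 and Col4a2, whose chains pair in nearly all basement membranes, were higher in the CKO library. Col4a1 had 14225 and 34872 reads, 472 and 819 CPM, a ratio of 1.73 (1.70 to 1.77), and Col4a2 had 11184 and 26016 reads, 371 and 611 CPM, a ratio of 1.64 (1.61 to 1.68). Both stayed under 2-fold with TMM, and both passed it with total counts and with the authors' FPKM and TPM values. Col4a3 and Col4a4, which with Col4a5 form the network of the mature glomerular filter and are mutated in Alport syndrome, were lower. Col4a3 had 16200 and 13560 reads, 538 and 318 CPM, 1.69-fold lower (1.65 to 1.73), and Col4a4 had 15975 and 15222 reads, 531 and 357 CPM, 1.48-fold lower (1.45 to 1.52). Col4a3 and Col4a4 kept a log2 ratio below 0 in all 9 alternatives that give a ratio, at most -0.33 and -0.11. Among these 9, the changes of the expression minimum leave each ratio as it is. Col4a5 had 55.6 and 65.8 CPM, a ratio of 1.18 (1.11 to 1.26), and Col4a6 was not expressed, with 2 and 15 reads.

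The type IV genes lie in head-to-head pairs, and the expressed pairs had like ratios within the pair. Col4a1 and Col4a2 on chromosome 8 overlap at their starts by 85 bp in RefSeq, and their log2 ratios were 0.79 and 0.72. Col4a4 and Col4a3 on chromosome 1 overlap by 114 bp, and their log2 ratios were -0.57 and -0.76. Col4a6 and Col4a5 on the X chromosome lie 1274 bp apart. In FPKM, which is scaled by gene length, Col4a1 was 1.14 times Col4a3 in the control and 3.35 times Col4a3 in the CKO library. Counted in reads, the ratio of Col4a1 to Col4a3 was 2.93-fold higher in the CKO library (exact conditional 95% interval 2.84 to 3.02). The ratio of Col4a1 to Col4a2 was nearly the same in both, at 1.24 and 1.31 in FPKM. Col4a5, per length, stood at 6.73 FPKM in the control, 7.34 times under Col4a3, and at 9.94 FPKM in the CKO library, 3.66 times under it.

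Podocytes make the collagen of the glomerular filter, and their markers moved little. Of the 6 podocyte markers, 0 passed 2-fold in either direction and the median log2 ratio was 0.07, with summed levels of 409 and 413 CPM in the control and CKO library. Of these, 0 had a count of 0. The 8 endothelial markers lay between -0.45 and 0.26, with summed levels of 567 and 542 CPM. Proximal tubule markers were mostly lower, with 3 of 8 past 2-fold, 1 above 0 and a median log2 ratio of -0.74. Over all expressed genes, 10.3% were at least 2-fold higher and 1.66% at least 2-fold lower. The part of these cell types in the Col4a3 and Col4a4 values was not tested.

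**Figure D3:**
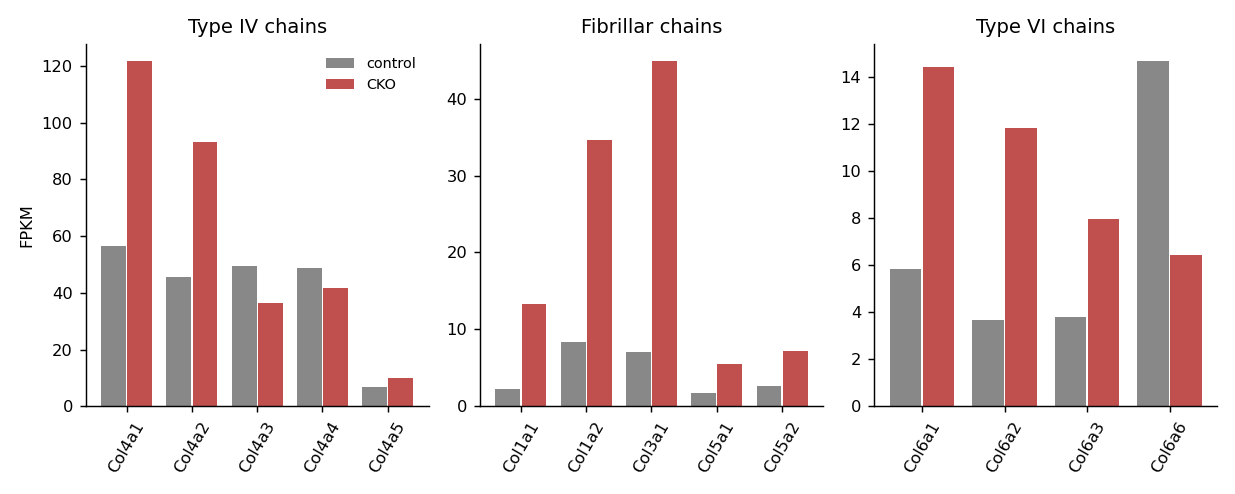
FPKM of partner chains in the control (grey) and CKO (red) library for type IV, fibrillar and type VI collagen, each panel with its own axis from 0. Col4a1 and Col4a2 have taller CKO bars while Col4a3, Col4a4 and Col6a6 have shorter ones.

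Type VI collagen forms beaded filaments around cells, and its usual chains were higher while Col6a6 was lower. Col6a1 had 29.4 and 58.5 CPM, a ratio of 1.99 (1.84 to 2.15). Col6a2 had 17.9 and 46.9 CPM, a ratio of 2.63 (2.39 to 2.89), and Col6a3 had 50.8 and 78.3 CPM, a ratio of 1.54 (1.45 to 1.64). Col6a1 sits at the 2-fold limit, under it with TMM at a log2 ratio of 0.98 and over it with total counts at 1.29. Col6a6, one of the chains thought to take the place of Col6a3, had 3940 control and 1956 CKO reads, 131 and 45.9 CPM, 2.85-fold lower (2.698 to 3.01). By log2 ratio (-1.50) it took place 56 from the bottom of the 15129 expressed genes. It stayed past 2-fold in all 9 alternatives that give a ratio, though changes of the expression minimum could not alter it. In FPKM, Col6a6 was 2.52 times Col6a1 in the control, and Col6a1 was 2.24 times Col6a6 in the CKO library. Its neighbours on chromosome 9, Col6a5 and Col6a4, were not expressed, with 7 and 10 reads for Col6a5 and 0 and 20 for Col6a4.

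Among chains that sit on fibril surfaces, Col12a1 stood out and Col19a1 went the other way. Col12a1 encodes a chain that links fibrils to their surroundings and had 296 and 3379 reads, 9.83 and 79.4 CPM, a ratio of 8.07 (7.17 to 9.12). By log2 ratio (2.95) it took place 54 from the top of all expressed genes, 1 behind Lox. Col16a1 had 10.7 and 24.99 CPM, a ratio of 2.33 (2.05 to 2.65). Col14a1, the highest of the class per length at 24.1 TPM in the control, had 91.9 and 117 CPM, a log2 ratio of 0.34. Col20a1 was equal within counting error, at 11.2 and 11.5 CPM, a ratio of 1.02 (0.887 to 1.18). Col19a1 had 109 and 39 reads, 3.95-fold lower (2.72 to 5.85), but at 3.62 CPM in the control it fell under the 2-fold limit with a pseudocount of 2 CPM and with FPKM and TPM values. Of the type IX chains of cartilage, Col9a1 had 0 reads in both libraries, and Col9a2 and Col9a3 had 0 in the control and 9 and 6 in the CKO library. Col22a1 also had 0 in both.

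Col15a1 and Col18a1, chains of basement membrane zones that carry sugar chains and release anti-angiogenic fragments (endostatin in the case of Col18a1), were both past 2-fold. Col18a1 had 5780 and 19392 reads, 192 and 455 CPM, a ratio of 2.37 (2.30 to 2.44). Col15a1 had 907 and 3788 reads, 30.1 and 89.0 CPM, a ratio of 2.95 (2.75 to 3.18). Col8a1, a chain of the short network collagen of vessel walls, had 10.7 and 40.0 CPM, a ratio of 3.75 (3.33 to 4.24). Its partner Col8a2 had 17 and 58 reads, and per length it was 18.9 times under Col8a1 in the control. Col7a1, the anchoring fibril chain, was equal within counting error, at 6.81 and 7.82 CPM, a ratio of 1.15 (0.962 to 1.37). Col10a1 had 0 and 14 reads and Col28a1 had 3 and 25.

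The transmembrane and other chains were expressed at low levels. Col17a1, which anchors epithelial cells to the basement membrane at hemidesmosomes, had 0 control and 108 CKO reads. Against a floor of 3 reads in the control, 0.0996 CPM, it was at least 25.5-fold higher, and the 95% counting interval of the ratio starts at 20.4. These bounds hold only if the listed 0 is a true count: among 13302 genes whose CKO count was 100 or more, 20 had a control count of 0 and 2 had a control count of 1 to 3. With 0.5 added to the authors' FPKM values of 0 and 0.446, Col17a1 had a log2 ratio of 0.92, under the 2-fold limit. Col25a1 had 10 and 58 reads, a ratio of 4.10 (2.08 to 9.001), and fell under the 2-fold limit with a pseudocount of 2 CPM and with FPKM and TPM values. Col26a1 had 177 and 497 reads, a ratio of 1.99 (1.67 to 2.37), and Col13a1 and Col23a1 had log2 ratios of 0.26 and 0.31.

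Because reads scale with gene length, the chains were compared with each other in the authors' TPM values. Summed over the 44 chains, TPM was 691 in the control against 1429 in the CKO library, a ratio of 2.07, where the median log2 ratio of all expressed genes in TPM was 0.40. Type IV chains made up 63.7% of the control sum and 48.6% of the CKO sum. Fibrillar chains went from 11.0% to 20.7%, and types XV and XVIII from 10.5% to 16.7%. Type VI chains went from 8.65% to 6.55%. In summed TPM, type IV was higher in the CKO library, 695 against 440 with a ratio of 1.58, and so was type VI, 93.6 against 59.7 with a ratio of 1.57. In summed CPM, which weights long chains more and uses TMM, these ratios were 1.10 for type IV and 1.005 for type VI. In the control the order of the chains by TPM was Col4a1 at 120, Col4a3 at 105, Col4a4 at 104, Col4a2 at 96.9, Col18a1 at 63.0 and Col6a6 at 31.3. In the CKO library it was Col4a1 at 279, Col4a2 at 214, Col18a1 at 201, Col3a1 at 103, Col4a4 at 96.0 and Col4a3 at 83.4. Col3a1 thus moved from place 10 to place 4, and Col6a6 from place 6 to place 19.

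**Figure D4:**
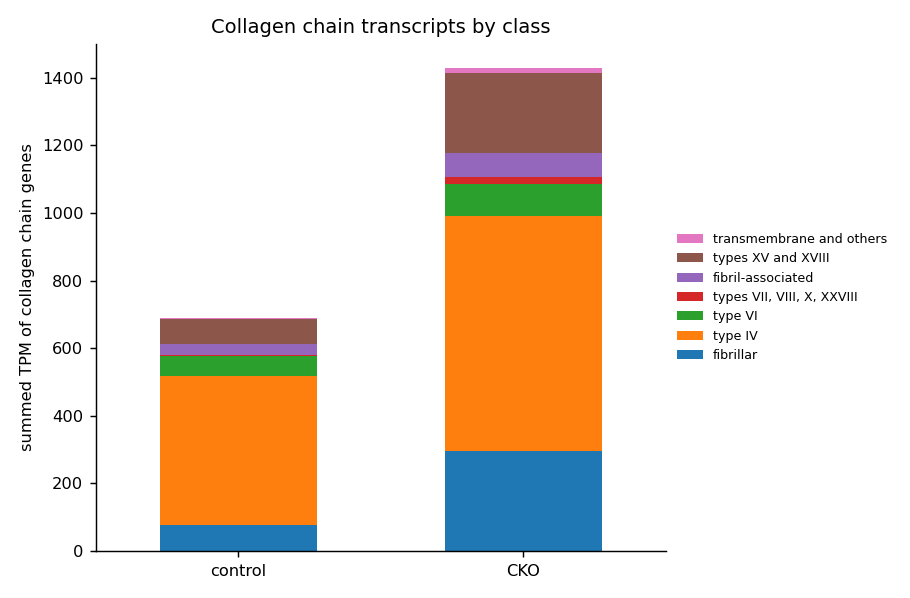
Summed TPM of the 44 collagen chain genes in each library, stacked by class from an axis that starts at 0. The CKO column reaches 1429 against 691, and the type IV part narrows from 63.7% to 48.6% of the column.

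Ratios between chains, per length, changed for some pairs and not for others. In type I collagen, Col1a2 was 3.75 times Col1a1 per length in the control and 2.61 times in the CKO library, and the read ratio of Col1a1 to Col1a2 was 1.43-fold higher in the CKO library (exact conditional 95% interval 1.29 to 1.60). Col3a1, a chain of another molecule, was 0.842 times Col1a2 per length in the control and 1.30 times in the CKO library. For type V, the ratio of Col5a1 to Col5a2 was 0.669 and 0.760 in FPKM, a change within counting error (0.980 to 1.27 in reads), and the change of Col8a2 to Col8a1 was within it too (0.364 to 1.19). Within type VI, the ratio of Col6a3 to Col6a2 went from 1.04 to 0.675. FPKM compares genes only as far as the authors' gene lengths are right.

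The enzymes split by step. The lysyl oxidases, which cross-link collagen and elastin outside the cell, were all higher, 4 of 5 of them past 2-fold, with a median log2 ratio of 1.26. The share past 2-fold upward over all expressed genes was 10.3%. Lox had 46 and 649 reads, 1.53 and 15.2 CPM, a ratio of 9.98 (7.39 to 13.8), and took place 53 from the top of all expressed genes. Loxl3 had 2.89 and 8.83 CPM, a ratio of 3.06 (2.41 to 3.90). Loxl4 had 1.56 and 4.44 CPM, a ratio of 2.84 (2.06 to 4.002), and Loxl2 had 16.0 and 33.6 CPM, a ratio of 2.10 (1.89 to 2.33). Loxl1, the highest of the family per length and needed for elastic fibres, had 21.3 and 39.3 CPM, a ratio of 1.84 (1.68 to 2.02). The calls of Loxl2 and Loxl4 are near the limit: with a pseudocount of 2 CPM their log2 ratios were 0.98 and 0.85. Exons of Loxl3 overlap those of Htra2 on the other strand over 11.6% of their length, and whether counting used strand is not given in the sources used here.

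The expressed hydroxylases, which act on the chains in the endoplasmic reticulum, differed by less than 1.5-fold in the same libraries, with P4ha1 the furthest from equal. Plod3, which also attaches sugars to hydroxylysine, had 1262 and 2174 reads, a ratio of 1.22 (1.14 to 1.31), and 11.7% of its exon length overlaps Znhit1 on the other strand. Plod2, the telopeptide lysyl hydroxylase linked to stable cross-links in fibrosis, had 1186 and 1827 reads, a ratio of 1.09 (1.01 to 1.17). Plod1 had 1413 and 1838 reads, a log2 ratio of -0.12. P4ha1, the main catalytic subunit of prolyl hydroxylase, had 1868 and 1908 reads, 62.0 and 44.8 CPM, 1.38-fold lower (1.30 to 1.48). P4ha2 had 724 and 996 reads, a log2 ratio of -0.04, and P4ha3 was not expressed, with 6 and 7 reads. The sign of Plod1 and P4ha2 is not fixed: with total counts their log2 ratios were 0.20 and 0.27. None of these 5 expressed genes passed 2-fold in either direction, where 10.3% of all expressed genes were at least 2-fold higher and 1.66% lower. With shares this low, 0 of 5 is not unusual. Log2 ratios of the 5 ran from -0.46 to 0.28, next to 0.87 to 2.96 for the lysyl oxidases. Pcolce, which enhances the removal of the C-propeptide, had 1196 and 3293 reads, 39.7 and 77.3 CPM, a ratio of 1.95 (1.82 to 2.08).

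Other genes of the pathway are given list by list, beside the 10.3% of all expressed genes that were at least 2-fold higher; the lists were not tested against each other. Of 20 genes for procollagen folding and secretion, 3 passed 2-fold upward, 15%, and 0 downward, and the median log2 ratio was 0.02. P4hb, the partner subunit of prolyl hydroxylase, stood at -0.28, while the chaperone gene Fkbp10 (4.25 to 11.3 CPM), Kdelr3 (1.83 to 5.31 CPM) and P3h4 (1.93 to 4.84 CPM) were the higher ones. Of 8 expressed genes for propeptide cleavage, 2 were at least 2-fold higher, 25%, and the summed level of the list was 0.714 times that of the control. Bmp1, the procollagen C-proteinase, had 340 and 1116 reads, a ratio of 2.32 (2.05 to 2.63), and Adamts2, an N-proteinase, had 153 and 546 reads, a ratio of 2.52 (2.11 to 3.04). The meprin gene Mep1a, with the most reads of that list (1844 CPM in the control), was at -0.53, and Pcolce2 had 11 and 45 reads.

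Of 19 expressed fibril partners, 10 passed 2-fold upward, 52.6%, and 0 downward, and the median was 1.07. Of these 10, Postn and Dpt reached 1 CPM only in the CKO library, so they counted as expressed only through it. Fbln1 went from 2.86 to 14.0 CPM, Lum from 1.13 to 6.18 CPM and Postn from 0.830 to 4.74 CPM, and Bgn, with the most control reads, had a log2 ratio of 0.98. Fn1, the fibronectin gene, had the most CKO reads of the list, with 131 and 416 CPM, a ratio of 3.17 (3.06 to 3.28). Among 11 expressed genes of collagen breakdown and uptake, 7 passed 2-fold upward, 63.6%, and 0 downward (median 1.29). Of these 7, Timp1 and Mmp3 reached 1 CPM only in the CKO library, so they counted as expressed only through it. The gelatinase gene Mmp2 had 183 and 1664 reads, a ratio of 6.43 (5.52 to 7.53), and the collagen-binding receptor gene Mrc1 had 108 and 891, a ratio of 5.83 (4.77 to 7.19). The inhibitor gene Timp1 had 0 and 384 reads, at least 90.5-fold higher against the floor of 3 reads if the listed 0 is a true count (the 95% counting interval of the ratio starts at 73.3), and Timp3, with the most reads, was at -0.72.

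Of 9 expressed collagen receptors, 4 passed 2-fold upward, 44.4%, and the median was 0.78. Of these 4, Lair1 and Itga2 reached 1 CPM only in the CKO library, so they counted as expressed only through it. Adgrg6 had 46 and 333 reads, Lair1 29 and 181, and Itga2 17 and 97, while Adgrg1, with the most reads, was at 0.78. Of 17 basement membrane partners, 3 passed 2-fold upward, 17.6%, and the median was 0.68. Smoc2 had 113 and 822 reads and the laminin chain gene Lamb3 had 49 and 175, while Agrn, with the most reads, was at 0.81. Of 14 TGF-beta signalling genes, 1 passed 2-fold upward, 7.14%, and the median was 0.43. Tgfb1 itself had a log2 ratio of 0.84, Tgfb2 0.99 and Ccn2 0.75.

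**Figure D5:**
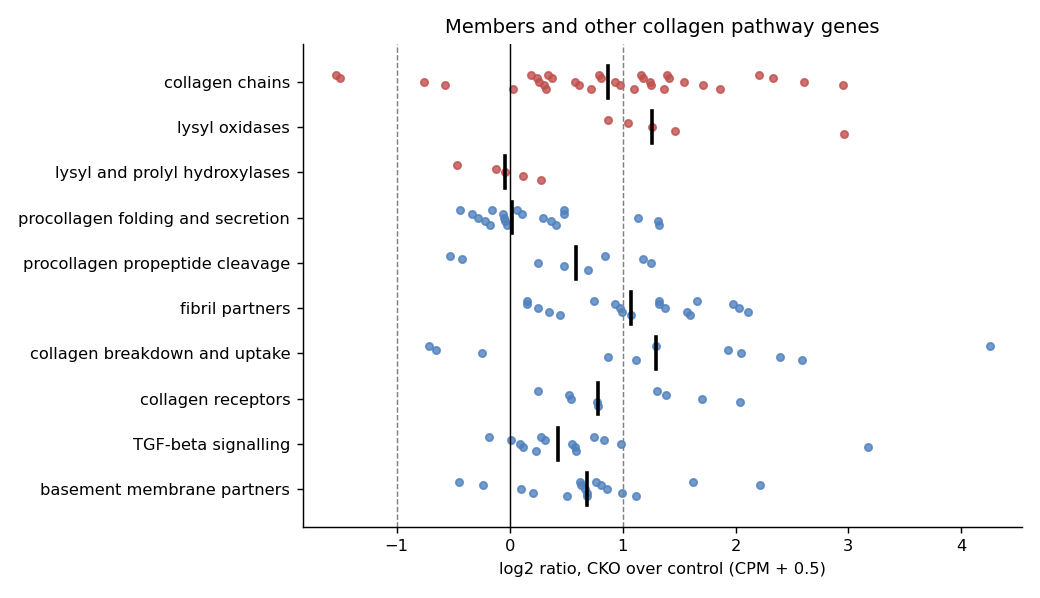
Log2 ratio of CPM + 0.5, CKO over control, for expressed collagen chains and enzymes (red) and for the other pathway lists (blue); each point is 1 gene, the black bar the list's median, and dashed lines mark 2-fold. Hydroxylases and folding genes centre near 0, while chains, lysyl oxidases, fibril partners and breakdown genes have medians from 0.87 to 1.29.

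Markers of several cell types moved with the fibrillar chains and lysyl oxidases. Over all expressed genes, 10.3% were at least 2-fold higher and 50.7% lay above 0. Of 12 fibroblast and pericyte markers, 7 passed 2-fold upward, 58.3%, and all 12 lay above 0. Their summed levels were 241 and 416 CPM, and 0 of them had a count of 0. Of these 7, Dcn, Lum, Postn and Dpt are also counted among the higher fibril partners. Postn, Dpt and Meg3 reached 1 CPM only in the CKO library, so they counted as expressed only through it. Pdgfrb, with the most control reads, had a log2 ratio of 0.42, while Pdpn, Thy1 and Lum stood at 2.36, 2.05 and 2.03. Of 5 smooth muscle and myofibroblast markers, 2 were at least 2-fold higher, Tagln at 1.52 and Acta2 at 1.16, with summed levels of 78.4 and 146 CPM. Myh11, with the most control reads of these 5, stood at 0.09. All 8 injured tubule markers were at least 2-fold higher, with summed levels of 380 and 4706 CPM, and 6 of 7 macrophage markers were, with 68.1 and 281 CPM. Among the injured tubule markers, Lcn2, Krt19, Sox9 and Krt20 likewise reached 1 CPM only in the CKO library. The 7 collecting duct and thick limb markers all lay above 0, with 2381 and 3445 CPM in sum and Aqp2 past 2-fold at 1.03. In the urothelium and parietal epithelium list, Cldn1 stood at 1.34, and Pax8, the only other expressed gene, at 0.06. The 4 mesangial markers lay between -0.54 and 0.63. The summed level of the fibrillar chains, 290 and 786 CPM, had a ratio of 2.71, next to 1.72 for the fibroblast and pericyte list. Single genes of that list had ratios from 1.31 for Cspg4 to 5.91 for Pdpn, and its sum is weighted toward the genes with most reads. The part of these cells in the collagen values was not tested.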

How the data were processed

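RNA was read from whole mouse kidneys in 2 libraries, prepared with a kit that keeps strand and selects mRNA, per the labels' protocols. Tools listed in the submitters' processing notes, without roles, include the aligner STAR 2.7.3a and the counter HTSeq, next to Cufflinks 2.2.1. They also list DESeq2, edgeR and FastQC, and the build is mm10. Deposited read counts are whole numbers per gene. FPKM (scaled by depth and gene length) and TPM columns were deposited beside the counts, per the file headers, and ratios between genes within a library were the same in both units for the partner chains compared. A normalized table was not used here.

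From the counts, TMM factors of 0.896 (control) and 1.12 (CKO) were computed with edgeR 4.0.16 in R 4.3.3, leaving out genes at 0 in both libraries. Intervals of ratios are exact Clopper-Pearson intervals at 95%, taken on the share of a gene's reads that the CKO library held. The steps were tested on simulated counts (Python 3.11.15, scipy 1.17.1). Coordinates are from RefSeq GRCm38.p6, and exon overlaps from GENCODE on GRCm38, the assembly of mm10. The 11 alternatives covered scaling (DESeq2 1.42.0 among them), pseudocounts, expression minimums, FPKM, TPM and call limits. The rule for naming took members at 10 CPM or more or past 2-fold, and in each pathway list the gene with the most reads and the 3 with the largest ratios. Other members, and further genes of the lists, were named after their values were seen. Members and lists were chosen with earlier results of these data known. Some genes of the lists are counted but not reported by name here.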

Additional observations from a re-analysis of the deposited data

How the results depend on the processing

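No paired analysis was possible because each group has 1 library, and for the same reason no library could be left out. The 19 members at least 2-fold higher became 14 to 27 over 11 alternatives, 14 with a minimum of 10 CPM and 27 with a 1.5-fold limit, where 19.3% of all genes passed. The minimum of 10 CPM left 33 members, so 14 is 42.4% of them, where 5.62% of all genes passed. The number at least 2-fold lower went from 2 to 1 with a pseudocount of 2 CPM, a minimum of 10 CPM, FPKM and TPM. The number of processing genes at least 2-fold higher went from 4 to 2 with a pseudocount of 2 CPM and with a minimum of 10 CPM. That minimum left Loxl3 and Loxl4 out of the count and changed no ratio. The members' median of 0.87 became 1.18 with total counts, 1.06 with totals that leave out mitochondrial genes and the top 50 genes, 1.14 with TPM and 0.71 with a pseudocount of 2 CPM. Over all genes, 1552 higher and 251 lower became 2391 and 102 with total counts, 825 and 167 with a pseudocount of 2 CPM, 573 and 182 with a minimum of 10 CPM, 2920 and 1037 with a 1.5-fold limit, and 1523 and 91 with FPKM. Of the 39 members named by the rule, 26 stayed on the same side of the 2-fold limits in every alternative that gives a ratio. Changes of the expression minimum leave each ratio as it is. The calls of Col11a1, Col19a1, Col25a1 and Loxl4 rest on 9, 109, 10 and 47 control reads and were lost with a pseudocount of 2 CPM and with FPKM + 0.5. An addition of 0.5 is large beside FPKM values this low and pulls their log2 ratios toward 0. Other causes were not tested.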
